A study of Mus musculus with 6 samples.

Results

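The 36 genes described here encode proteins of homologous recombination and of the Fanconi anemia pathway of DNA interstrand crosslink repair. They were chosen by name, and all 36 were found among the 53657 gene names counted in the transcriptome of undifferentiated spermatogonia (A_undiff), the testis population that contains the spermatogonial stem cells. Libraries came from 3 WT and 3 MUT adult mice of mixed genetic background. All 6 mice carried Gfra1-creERT2, a tamoxifen-activated Cre recombinase under the Gfra1 promoter, and the Cre-dependent red reporter tdTomato fl/-. The MUT mice also carried FR-Hras G12V fl/-, an allele in which Cre replaces a floxed wild-type Hras by Hras G12V under the endogenous promoter. WT mice were littermates without that allele. Both groups received 2 courses of tamoxifen of 4 days each, and tdTomato+ MCAM-bright cells were sorted 3 months later, 1 library per mouse. The reporter and the Hras allele recombine separately, so tdTomato marks cells of Cre activity and their progeny and does not mark the mutation itself.

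Homologous recombination repairs a double-strand break by copying the intact sister or homologous chromosome. The broken ends are resected to single strands, BRCA1, PALB2 and BRCA2 prepare them for strand exchange, and helicases and nucleases then resolve the joined molecules. The Fanconi pathway detects a crosslink that stalls replication, attaches ubiquitin to FANCD2 and FANCI through a core complex that includes the ligase FANCL, and hands the resulting break to homologous recombination. Both pathways act in dividing cells, and mice that lack Fanconi proteins are known for a depleted germ cell pool. Oncogenic Ras is known to cause replication stress in cultured fibroblasts, and the contrast of MUT with WT asks here whether transcripts of these repair genes differed in spermatogonia that were exposed to Hras G12V in vivo.

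The promoters of the 36 genes were examined for sequence features that the choice by name had not used. A RefSeq promoter window of 300 bases (250 before and 50 after the transcription start, GRCm38.p6) was available for 28 of them. Exact matches on both strands were sought for 3 kinds of motif. The E2F-type motif was taken as TTTGGCG, with the variant spelling TTTCCCG and the further variant spelling TTTCGCG. The CCAAT box was taken by its name, and the CHR-type motif as TTTGAA. A match of one kind may share end letters with a match of another, and each was counted. An E2F-type match was present in 11 of the 31 windows of these genes (35.5%), against 5.58% of all 32851 windows. The 9 genes with such a match were Bard1, Brca2, Rad51b, Rad51c, Brip1, Fancg, Chek1, Chek2 and Gen1. The CCAAT box was present in 58.1% of the windows of these genes and in 37.4% of all windows. The CHR-type match was present in 9.68% and 17.9%. Rad52, Fancl, Fanci, Atr and Mus81 held none of the 3. The windows of Brip1 and Chek2 are shown for the 220 bases before the start, because each carries both an E2F-type match and CCAAT boxes there. They lie at chr11:86201194-86201413 on the minus strand and chr5:110839763-110839982 on the plus strand, written 5' to 3' on the strand of the gene with the matches in capitals. In the Chek2 window CGGGAAA is an E2F-type match on the opposite strand, and ATTGG is the CCAAT box read on the opposite strand.
Brip1: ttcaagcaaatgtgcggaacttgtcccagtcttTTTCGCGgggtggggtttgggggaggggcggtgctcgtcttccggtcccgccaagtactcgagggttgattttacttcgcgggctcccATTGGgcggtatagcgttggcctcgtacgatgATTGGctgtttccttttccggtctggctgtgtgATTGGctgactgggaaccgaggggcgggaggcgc
Chek2: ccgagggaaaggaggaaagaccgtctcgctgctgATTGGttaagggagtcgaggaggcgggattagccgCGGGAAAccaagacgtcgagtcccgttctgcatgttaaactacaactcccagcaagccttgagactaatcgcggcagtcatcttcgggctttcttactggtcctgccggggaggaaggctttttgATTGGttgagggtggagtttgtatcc
These matches describe letters in a window and not occupied sites, and no measurement of binding was made.

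The 6 libraries held between 22729292 and 23550433 fragments counted on genes. Levels are given as CPM, the count scaled to a library size normalized by the TMM method, and as CPM per kilobase of annotated exon where genes are compared with each other. Markers of A_undiff were present in all 6 libraries, with Zbtb16 at 303 to 469 CPM and Gfra1 at 104 to 147 CPM. Hras had 56.8, 60.1 and 65.2 CPM in WT and 69.9, 69.1 and 61.0 CPM in MUT, but these counts do not separate the alleles and so do not check the labels. The paper reports variant calling at the mutated base of Hras and infers that most sorted cells of the MUT group carried the mutation. That check cannot be repeated from counts per gene. tdTomato, which both groups carry, had 64.3, 65.2 and 56.2 CPM in WT and 66.4, 65.2 and 52.6 CPM in MUT. Its means were 61.9 ± 4.99 CPM in WT and 61.4 ± 7.64 CPM in MUT (SD, n = 3). WT replicate 3 stood apart from the other libraries. The summed level of 10 meiotic markers was 998 CPM there against 656 to 833 CPM elsewhere, that of 6 round spermatid markers was 1213 CPM (the others 489.7 to 962 CPM) and that of 6 macrophage markers 731 CPM (the others 419.7 to 570.1 CPM). Its sum over 10 markers of undifferentiated spermatogonia was the lowest, 1758.5 CPM against 1878.5 to 2311 CPM. By the median of these 10 markers around each gene's mean, MUT replicate 2 was lower (log2 -0.22) than WT replicate 3 (-0.17). In bulk samples such as these, fewer cells of a type and less RNA per cell cannot be told apart. Fold changes of the main genes and lists are therefore also given without WT replicate 3 where it moved them most.

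All 36 genes were expressed. Their mean level ranged from 4.63 to 325 CPM (median 58.6 CPM), 33 of them were above 10 CPM, and the lowest count of any gene in any library was 96 fragments. Per kilobase of exon their median was 10.3 CPM per kb, against 3.90 CPM per kb over the 19656 genes tested, and 30 of the 36 lay above that median. The highest levels were those of Rad50 (35.5 CPM per kb), Rbbp8 (27.2), Atm (26.7) and Brca2 (23.9). The lowest were those of Rad51b (1.41 CPM per kb), Fancb (1.55), Gen1 (3.27) and Rad52 (3.39). The 6 libraries of Rad51b spanned 1.24 to 1.53 CPM per kb and those of Fancb 1.40 to 1.79 CPM per kb, so these neighbours in the order overlapped. Rbbp8 (24.6 to 28.6 CPM per kb), Atm (19.8 to 31.3) and Brca2 (18.3 to 28.0) overlapped too. The level of Rad50 was between 35.8 and 38.1 CPM per kb in 5 libraries, above all values of the next 3 genes, and 28.9 CPM per kb in WT replicate 3. Exon length affects this order. Atr had 278 CPM in MUT, almost as much as Atm (282 CPM), but only 11.6 CPM per kb, since its annotated exons add up to 23629 bases.

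**Figure D1:**
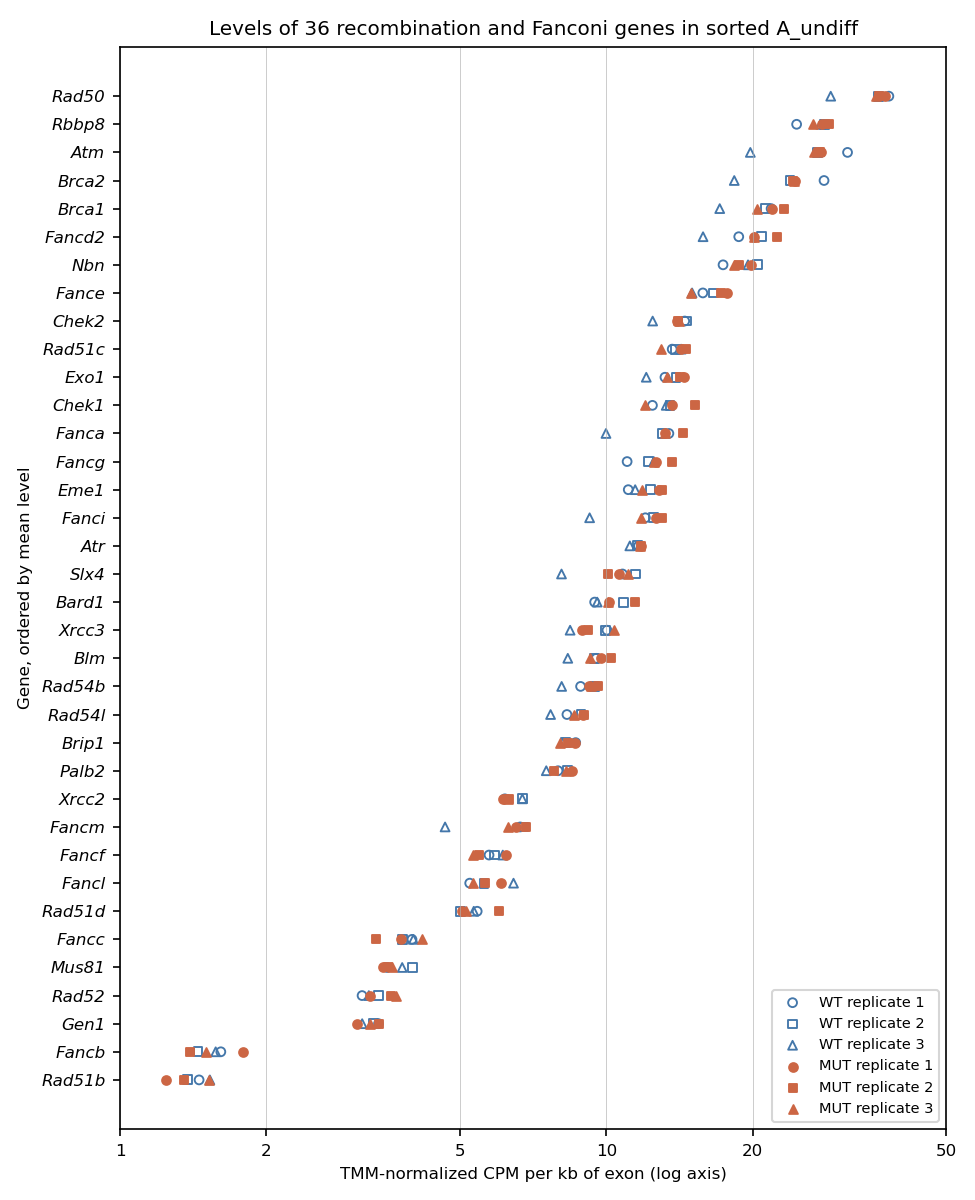
TMM-normalized CPM per kb of exon (log axis) of the 36 genes in each of the 6 libraries, with open blue symbols for WT and filled orange symbols for MUT, ordered by mean level. The WT and MUT symbols of a gene lie among each other along a range from 1.41 (Rad51b) to 35.5 (Rad50) CPM per kb in the mean, and the open triangle of WT replicate 3 lies to the left for Atm, Brca2, Fancm and Slx4.

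No gene of the 36 passed the test between MUT and WT. With Benjamini-Hochberg adjustment over 19656 genes, the quasi-likelihood test of edgeR gave 0 of 36 genes an adjusted p under 0.1, where 2 of all genes passed (0.0102%). When replicates of the same number were blocked the count was again 0, where 13 of all genes passed (0.0661%), with DESeq2 it was 0, where 9 passed (0.0241%), and without WT replicate 3 it was 0, where 5 passed (0.0249%). At an unadjusted p under 0.05 there were 0 of the 36 and 2.78% of all genes, and with the block 1 of the 36 (Fancd2) and 6.6% of all genes. The adjusted p of the 36 lay between 0.998 and 0.999. Their log2 fold changes of MUT over WT ran from -0.09 (Mus81) to 0.18 (Fancd2) with standard errors of 0.064 to 0.17.

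The data left little room for large differences in these transcripts. Every one of the 36 single-gene 95% intervals lay within a 1.5-fold change in either direction, as did 59.1% of all genes tested and 92% of the 10583 genes above 10 CPM. Within a 2-fold change in either direction lay all 36 and 81.6% of all genes tested. The most extreme bounds were 0.740-fold (Rad51b) and 1.34-fold (Fancm). These intervals hold for 1 gene at a time and not for all 36 together. The within-group coefficient of variation of the 36 genes had a median of 6.98%, close to the 7.62% of genes above 10 CPM.

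**Figure D2:**
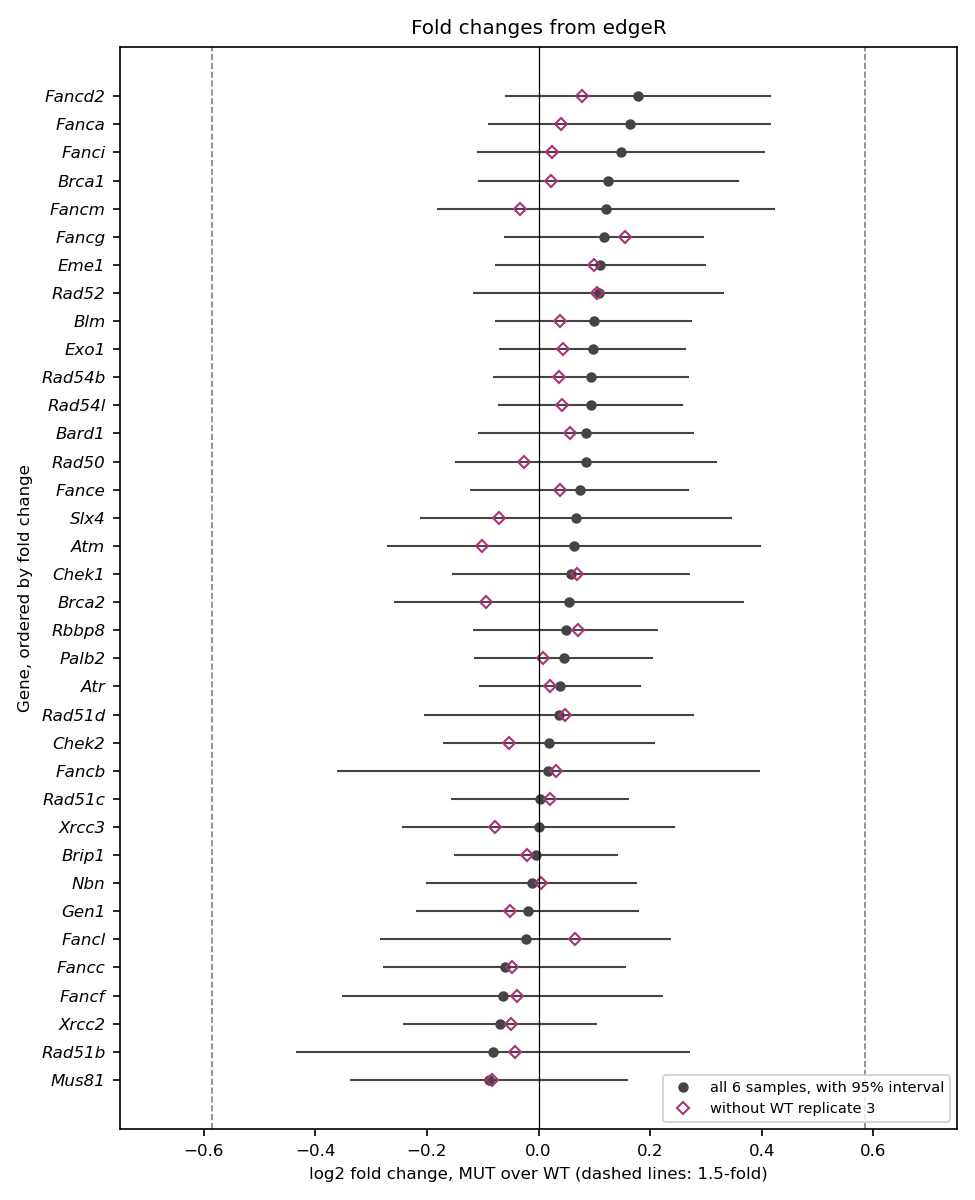
log2 fold change of MUT over WT for the 36 genes from edgeR with all 6 libraries (dots, lines are 95% confidence intervals) and without WT replicate 3 (open diamonds), with dashed lines at a 1.5-fold change. Every interval crosses 0 and stays inside the dashed lines, and the diamonds of Fancm, Atm, Brca2 and Slx4 lie left of 0 where their dots lie right of it.

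The fold changes were small but leaned to one side. The log2 fold change was above 0 for 27 of the 36 genes, against 51.8% of all genes. Its median was 0.057, against 0.0066 over all genes and 0.016 over genes above 10 CPM. Without WT replicate 3 the log2 fold change was above 0 for 22 of the 36, against 53.1% of all genes. The median was then 0.021, against 0.010 over all genes. Within the replicate numbers, MUT exceeded WT for 21, 25 and 22 of the 36 genes in pairs 1, 2 and 3, where 51.4%, 50.4% and 50.8% of all genes did. It did so in all 3 pairs for 11 genes, against 14.1% of all genes, and the reverse held in all 3 pairs for 3, against 13%. Genes measured in the same libraries are not independent of each other.

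The position of WT replicate 3 accompanied most of the larger values. This library was the lowest of the 6 for 17 of the 36 genes, against 34.7% of the genes above 10 CPM, and the lowest of the 3 WT libraries for 20 of them, against 44.5%. Its level was below the mean of WT replicates 1 and 2 by 32.4% for Atm, by 30.4% for Fancm, by 29.4% for Brca2 and by 27.4% for Slx4. The deficit was 24.7% for Fanci, 24.6% for Fanca, 22.2% for Rad50, 20.6% for Brca1 and 20.1% for Fancd2. Fancl, which encodes the ligase of the core complex, was 18.9% higher there. Longer coding sequences went with larger deficits. Across the 36 genes the deviation of WT replicate 3 from the mean of the other 5 libraries had a Spearman correlation of -0.72 with coding length, and across 9972 genes above 10 CPM it was -0.59. These points share their libraries, and the values describe this library. In the other 5 libraries the same correlation was 0.20 to 0.44 over the 36 genes. Each of these was set against a mean that includes WT replicate 3, so they are not independent of it. Among the 4 members with 6001 or more coding bases the median deviation was -0.47 on the log2 scale, and it was -0.49 among all 322 such genes above 10 CPM. Atr was the exception of the 4. Its coding sequence of 7923 bases ranks it with Brca2 (9987), Atm (9198) and Fancm (6063), yet WT replicate 3 was only 3.80% below the other WT libraries. The part of the marker levels given above in this pattern was not tested.

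**Figure D3:**
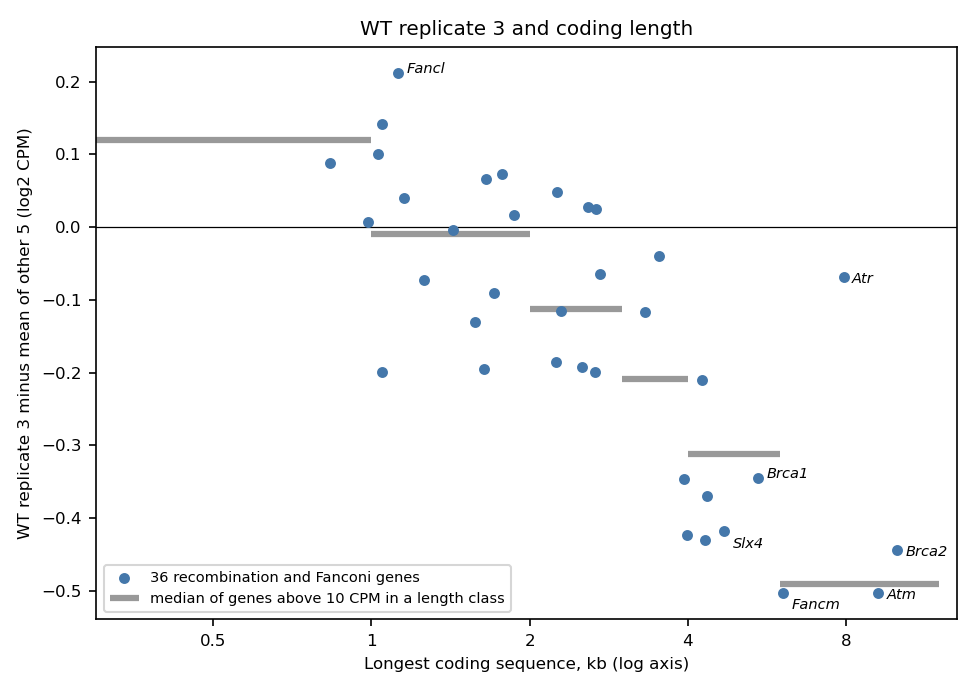
Deviation of WT replicate 3 from the mean of the other 5 libraries (log2 CPM) against the longest annotated coding sequence (kb, log axis) for the 36 genes (dots), with grey bars for the median of all genes above 10 CPM in each of 6 length classes, the first and last class being open-ended. Dots and bars fall together from short to long genes, down to -0.47 for the 4 longest members and -0.49 for all genes of that class, and Atr lies well above the other long genes.

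In the group around BRCA1 and BRCA2, BRCA1 and BARD1 form a ubiquitin ligase, PALB2 bridges BRCA1 to BRCA2, and BRCA2 binds single-stranded DNA and prepares it for strand exchange. Brca1 (chr11:101488764-101551955, minus strand) had 186, 181 and 146 CPM in WT replicates 1 to 3 and 187, 198 and 174 CPM in MUT. The groups overlapped, and the low value was that of WT replicate 3. With a log2 fold change of 0.13 ± 0.10 (SE), the difference shrank to 0.023 without that library. Brca2 (chr5:150522630-150570329, plus strand) had 382, 326 and 249.95 CPM in WT and 333, 331 and 331 CPM in MUT. The 3 MUT values of Brca2 differed by less than 1% of their level (SD 1.32 CPM), whereas the WT libraries spread on both sides of them (SD 66.4 CPM). Its log2 fold change was 0.054 ± 0.14 with all libraries and -0.09 without WT replicate 3. Bard1 (56.4 CPM in WT, 59.8 in MUT) and Palb2 (58.2 and 60.1 CPM) also overlapped between groups.

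The 5 genes of the paralog complexes, Rad51b, Rad51c, Rad51d, Xrcc2 and Xrcc3, which assist strand exchange, showed small differences of both signs. Rad51c, part of both paralog complexes, had 59.9, 60.7 and 62.5 CPM in WT and 62.5, 64.0 and 56.9 CPM in MUT, with a log2 fold change of 0.0027 ± 0.070. Xrcc3, its partner, had a mean of 26.1 CPM in both groups. Rad51b, the least abundant of the 36 per kilobase, had 5.46, 5.17 and 5.75 CPM in WT and 4.68, 5.07 and 5.73 CPM in MUT. The 2 groups of Rad51b overlapped, and its interval, -0.43 to 0.27, was among the widest of the 36. Rad51d (19.5 and 20.04 CPM) and Xrcc2 (34.1 and 32.5 CPM) completed the set, whose log2 fold changes lay between -0.08 and 0.037. The summed level of the 5 paralogs in WT replicate 3 was 146 CPM, within 0.036% of the mean of the other WT libraries. That sum hides opposite differences. Xrcc3 was 15.8% lower there (23.2 CPM, its lowest library), and Rad51b, Rad51c, Rad51d and Xrcc2 were 2.23% to 8.11% higher. Without WT replicate 3 the log2 fold change of Xrcc3 was -0.078. All 5 have coding sequences of 834 to 1152 bases.

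RAD52 anneals single strands, and RAD54L and RAD54B are motor proteins that help strand invasion. Rad54l had 63.9, 68.3 and 59.2 CPM in WT and 69.1, 69.2 and 66.0 CPM in MUT. The MUT values were at the upper end of the WT values and overlapped them, with a log2 fold change of 0.093 ± 0.073, or 0.042 without WT replicate 3, the lowest library. Rad52 had 18.1, 19.6 and 18.7 CPM in WT and 18.75, 20.7 and 21.2 CPM in MUT (0.11 ± 0.098). Rad54b had 50.9 and 54.3 CPM in the means. Of the exon bases of Rad54b 35.9% are shared with other genes, among them Fsbp on the same strand, and fragments on shared bases were not counted, so its level is uncertain.

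End resection begins with the MRE11-RAD50-NBN complex and its cofactor CtIP, encoded by Rbbp8, and is extended by the exonuclease EXO1. Rad50 had 205, 195 and 155 CPM in WT and 201, 195 and 192 CPM in MUT (log2 fold change 0.085, or -0.026 without WT replicate 3). Rbbp8 had 95.2, 108.5 and 107 CPM in WT and 108, 111 and 103 CPM in MUT. Nbn had 44.0, 51.8 and 49.5 CPM in WT and 50.35, 47.4 and 46.3 CPM in MUT. The groups overlapped for each, and only Rad50 was clearly low in WT replicate 3, where Nbn and Rbbp8, with shorter coding sequences, were at or above the middle of their WT values. Exo1 (chr1:175880581-175913489, plus strand) was among the 6 genes with the lowest unadjusted p. It had 111, 117 and 102 CPM in WT and 122, 119 and 112 CPM in MUT, with a log2 fold change of 0.097 ± 0.074 (adjusted p = 0.998 in edgeR's quasi-likelihood test) and 0.044 without WT replicate 3.

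BLM unwinds double Holliday junctions and BRIP1 is the helicase that binds BRCA1. Blm had 83.6, 82.9 and 73.1 CPM in WT and 85.6, 89.9 and 81.1 CPM in MUT. The overlap rested on MUT replicate 3, which lay below WT replicates 1 and 2, and the log2 fold change was 0.099 ± 0.077, or 0.039 without WT replicate 3, the lowest library. Brip1, whose promoter is shown above, had 62.2 CPM in WT and 62.0 CPM in MUT.

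The 8 genes of the Fanconi core complex did not share a direction, with 5 log2 fold changes above 0 and 3 below. FANCA and FANCG are partners in the complex that holds the ligase. Fanca (chr8:123268300-123318576, minus strand) had 118, 114 and 87.4 CPM in WT and 116, 126 and 116 CPM in MUT. WT replicate 3 was the single low value, and the log2 fold change of 0.16 ± 0.11 was 0.040 without it. Fancg (chr4:43002343-43010506, minus strand) had 41.9, 46.3 and 47.504 CPM in WT and 48.0, 51.7 and 47.49 CPM in MUT. Its groups overlapped only because WT replicate 3 and MUT replicate 3 were nearly equal. Fancg had a log2 fold change of 0.12 ± 0.079 (adjusted p = 0.998 in edgeR's quasi-likelihood test). It was one of the genes whose value was larger without WT replicate 3, 0.15 with an interval of -0.031 to 0.34. Fancb, on the X chromosome, was the lowest of the 36 in CPM, with 4.81, 4.32 and 4.69 CPM in WT and 5.33, 4.16 and 4.49 CPM in MUT. The 2 extreme values of Fancb were both MUT. Fancm, a DNA translocase, had 62.8 ± 12.3 CPM in WT and 68.3 ± 2.83 CPM in MUT (SD, n = 3), and its log2 fold change of 0.12 was -0.034 without WT replicate 3. The remaining members, Fancc, Fance, Fancf and Fancl, had log2 fold changes between -0.06 and 0.074. Exon bases shared with other genes amounted to 18.6% for Fancc, 15% for Fancf, 13.7% for Fancl and 10.5% for Fanca.

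FANCD2 and FANCI form the clamp that the core complex ubiquitylates, and Fancd2 had the highest fold change and the lowest unadjusted p of the 36. Fancd2 (chr6:113531682-113597017, plus strand) had 149, 165 and 125 CPM in WT and 159.8, 178 and 159.7 CPM in MUT. All MUT values exceeded WT replicates 1 and 3, and WT replicate 2 lay above MUT replicates 1 and 3. The log2 fold change was 0.18 ± 0.10 with an interval of -0.060 to 0.42 (unadjusted p = 0.124, adjusted p = 0.998 in edgeR's quasi-likelihood test). Without WT replicate 3 it was 0.078, with an interval of -0.092 to 0.25. Fanci (chr7:79391929-79450264, plus strand) had 69.4, 72.2 and 53.3 CPM in WT and 72.9, 75.2 and 67.9 CPM in MUT. The same library was the low one, and the log2 fold change of 0.15 ± 0.11 was 0.024 without it. Of the exon bases of Fanci 16.0% are shared with Polg.

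**Figure D4:**
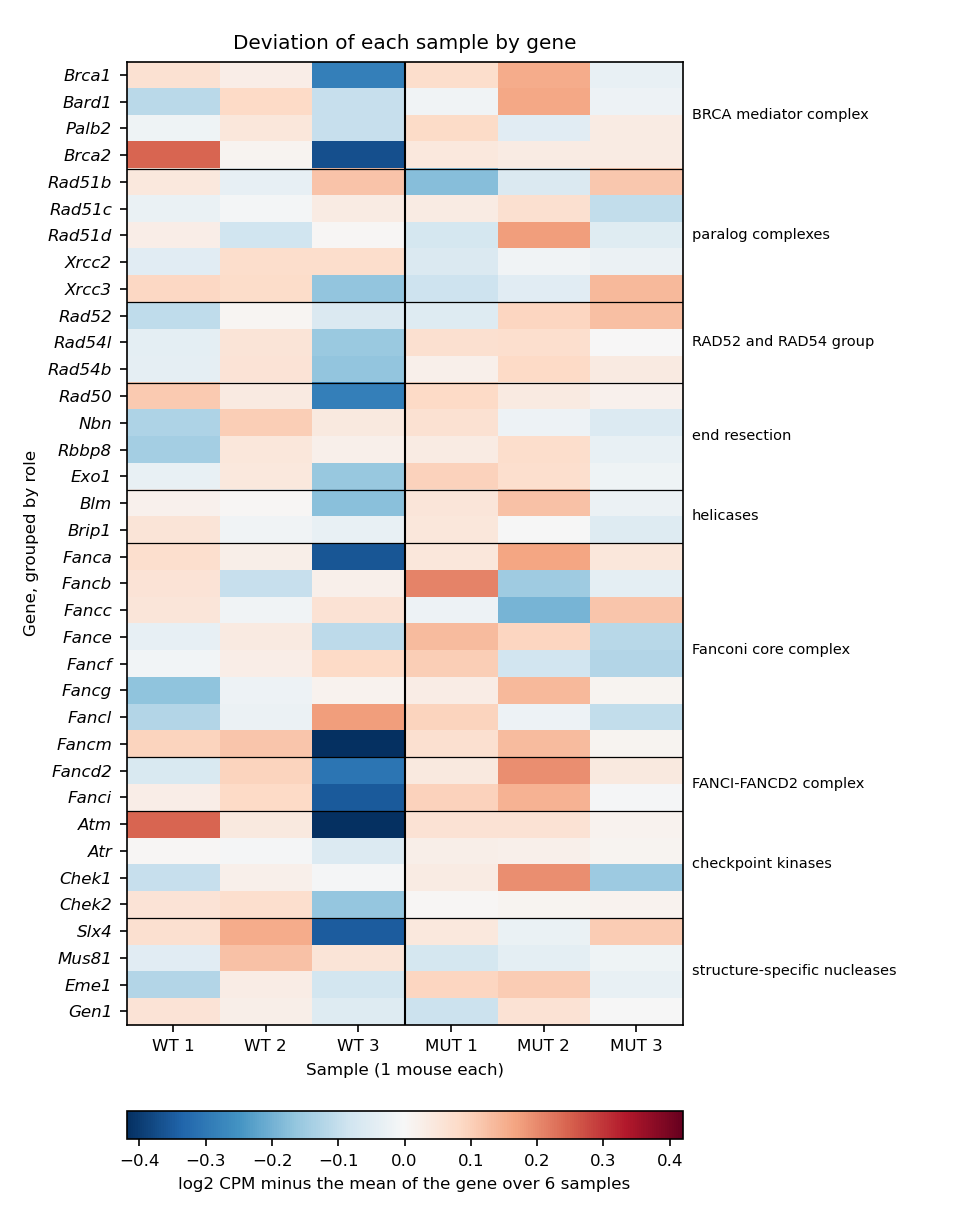
log2 CPM of the 36 genes in each library minus the mean of the gene over the 6 libraries (colour scale, blue below and red above the mean), with genes grouped by role and a vertical line between WT and MUT. The dark blue cells are in the column of WT replicate 3 (Fancm, Atm, Brca2, Fanca, Fanci and Slx4 among them), and no MUT column is uniformly red or blue.

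ATM and ATR are the kinases that signal double-strand breaks and stalled forks, and CHEK2 and CHEK1 act below them. Atm (chr9:53439149-53536740, minus strand) had 324, 281 and 204 CPM in WT and 285, 285 and 276 CPM in MUT. As for Brca2, the WT values lay on both sides of a narrow MUT range. Its log2 fold change of 0.064 ± 0.15 became -0.10 ± 0.069 without WT replicate 3. Atr (chr9:95857597-95951781, plus strand), named after its values were seen, was the only one of the 36 whose groups did not overlap, with 275, 274 and 264 CPM in WT and 279, 279 and 277 CPM in MUT. All 3 MUT samples exceeded all 3 WT samples for 4.69% of all genes tested, and fell below them for 3%. The difference of Atr was 2.70% of its WT level, the exact two-sided permutation test gave p = 0.1, the smallest that 3 against 3 samples allow, and its edgeR log2 fold change was 0.038 ± 0.064. Chek1 had 57.6, 62.6 and 61.5 CPM in WT and 63.2, 70.6 and 55.6 CPM in MUT. The highest and the lowest value of Chek1 were both MUT. Chek2 had 41.6 CPM in WT and 42.1 CPM in MUT.

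Among the structure-specific nucleases, MUS81 and EME1 form one enzyme, SLX4 is the scaffold that recruits it, and GEN1 resolves Holliday junctions on its own. Mus81 had the lowest fold change of the 36, with 12.6, 14.2 and 13.6 CPM in WT and 12.4, 12.7 and 12.9 CPM in MUT. The 3 MUT values lay near the lower end of the WT values and overlapped them (log2 fold change -0.09 ± 0.11). Its partner Eme1 (chr11:94644996-94653964, minus strand) had the highest fold change of these 4 genes, with 30.6, 34.1 and 31.7 CPM in WT and 35.5, 35.95 and 32.7 CPM in MUT. For Eme1 it was 0.11 ± 0.083 (adjusted p = 0.998 in edgeR's quasi-likelihood test), and 0.10 without WT replicate 3. Gen1 had 26.4, 25.8 and 24.4 CPM in WT and 23.8, 26.5 and 25.3 CPM in MUT, which overlapped fully. Slx4 had 77.5 ± 13.7 CPM in WT and 81.2 ± 3.81 CPM in MUT (SD, n = 3), and its log2 fold change of 0.067 was -0.071 without WT replicate 3.

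A further 35 genes of the same pathways were similar in calls and direction, but WT replicate 3 moved them less. In edgeR 0 of them had an adjusted p under 0.1 and 0 an unadjusted p under 0.05. Of the 35, 26 were above 0 (median log2 fold change 0.051), and 25 without WT replicate 3 (median 0.046). Their summed level in WT replicate 3 differed from the mean of WT replicates 1 and 2 by -1.83%. For the 36 genes it differed by -15.5%. Faap100, a core complex subunit, had the lowest p of these 35, with 38.7, 36.6 and 35.6 CPM in WT and 43.0, 43.1 and 39.2 CPM in MUT. Its groups did not overlap, and its log2 fold change was 0.18 ± 0.078 (adjusted p = 0.998 in edgeR's quasi-likelihood test). With Wdr48, Faap24 and Brcc3, named after their values were seen, it was 1 of 4 genes in this list whose MUT values all exceeded the WT values, beside the 4.69% of all genes.

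Lists of related processes were read beside these genes. The 11 genes listed under non-homologous end joining, a competing form of break repair, included Polq and Lig3 of an alternative route. All 11 had log2 fold changes above 0 (median 0.089), but only 6 did without WT replicate 3 (median 0.0047). The 37 DNA replication genes had a median of 0.082, with 32 above 0, and 0.079 without that library. The 20 mitosis genes had a median of 0.043, with 16 above 0. Of these 3 lists 0 genes had an adjusted p under 0.1 in edgeR, and an unadjusted p under 0.05 was found for Xrcc6 and for Gins3. Mki67, a marker of cycling cells, had 434, 493 and 355 CPM in WT and 465, 497 and 466 CPM in MUT, and Pcna, the replication clamp, had 135 ± 13.7 and 133 ± 12.1 CPM (SD, n = 3).

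Markers of germ cell stages and of other testis cells were read in the same libraries. All 7 markers of differentiating spermatogonia had log2 fold changes above 0 (median 0.13), and 6 did without WT replicate 3 (median 0.14). Their sum was 1045 to 1129 CPM in WT and 1146 to 1312 CPM in MUT, without overlap. Taken singly, 2 of the 7 (Stra8 and Sohlh2) had all MUT values above all WT values, against 4.69% of all genes. The groups of Kit overlapped. Kit had 142 ± 21.6 CPM in WT and 182 ± 38.7 CPM in MUT, and Stra8 169 ± 8.60 and 205 ± 32.8 CPM (SD, n = 3). Neither Kit nor Stra8 passed the adjusted threshold in edgeR. Of the 10 markers of undifferentiated spermatogonia 2 were above 0 (median -0.16) and 1 without WT replicate 3 (median -0.25), with sums of 1758.5 to 2311 CPM in WT and 1878.5 to 2273 CPM in MUT. The 6 round spermatid markers were all below 0 (median -0.57), but without WT replicate 3 the median was -0.38 and 2 of the 6 were above 0. Their sums were 708 to 1213 CPM in WT and 489.7 to 927 CPM in MUT. Among the 6, Tnp1, a nuclear protein of spermatids, passed with the replicate block (adjusted p = 0.079 in edgeR). The sum of the 10 meiotic markers spanned 656 to 998 CPM in WT and 802 to 833 CPM in MUT. Of these 10, 3 had log2 fold changes above 0 (median -0.028), and 8 did without WT replicate 3 (median 0.20). Sycp3, of the synaptonemal complex, had 80.9 ± 20.1 CPM in WT and 80.6 ± 2.87 CPM in MUT (SD, n = 3). Macrophage markers summed to 503 to 731 CPM in WT and 419.7 to 559 CPM in MUT. Leydig cell markers summed to 13.2 to 21.1 CPM in WT and to 12.9, 13.5 and 67.3 CPM in MUT replicates 1 to 3. Sertoli cell markers summed to 26.2 to 31.5 CPM in WT and 29.5 to 37.6 CPM in MUT. The median log2 fold changes of these lists were -0.28, 0.98 and 0.13. Without WT replicate 3 they were -0.12, 1.21 and 0.31. Of the last lists 5 of 6 Leydig and 6 of 7 Sertoli markers passed the filter on low counts, and Lhcgr and Amh did not. Myoid cell markers summed to 7.91 to 9.68 CPM and 9.15 to 12.8 CPM, and endothelial markers to 44.1 to 58.3 CPM and 43.8 to 53.2 CPM. The sum of the 36 repair genes was 2503 to 2977 CPM in WT and 2879 to 3016 CPM in MUT, with WT replicate 3 the lowest. The part of these cell types in the levels of the repair genes was not tested.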

How the data were processed

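RNA from sorted tdTomato+ MCAM-bright A_undiff of 3 WT and 3 MUT mice was sequenced as paired-end stranded mRNA libraries. The deposited values are raw counts of fragments on each gene name, which the authors made with featureCounts 1.6.2 on GENCODE vM17 plus tdTomato. No strand option was set, and fragments that were ambiguous or mapped to several places were not counted. STAR, FastQC and GRCm38.p6 are named in the submitters' processing notes. Of the 36 genes, 14 share exon bases with another gene, 8 of them over 10%, and these are undercounted by an unknown amount. Depth was 22729292 to 23550433 counts per sample, at which 3 counts equal 0.13 CPM. Intervals cover the spread between mice, each sample being 1 mouse.

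TMM normalization and the filter of filterByExpr, which kept 19656 genes, were run in edgeR 4.0.16 (R 4.3.3). MUT was compared with WT by its quasi-likelihood test, and p-values were adjusted by Benjamini-Hochberg over these genes (FDR 0.1). Standard errors were derived from the log2 fold change and its F statistic. Alternatives were DESeq2 1.42.0, limma voom (limma 3.58.1), DESeq2 size factors in edgeR, an FDR of 0.05, a block for the replicate number, no filter, a minimum of 10 counts in all samples, and leaving out each sample in turn. A correction for coding length, with and without the block, was chosen after seeing the data. It used the longest coding sequence of GENCODE vM21 (GRCm38), which was matched by name for 94.2% of genes above 10 CPM. The fits were tested on simulated counts.

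Replicate numbers come from the labels. Deviations from the group means correlated at 0.30, 0.16 and 0.40 between WT and MUT samples of the same number (10583 genes above 10 CPM), although WT replicate 2 correlated best with MUT replicate 1 (0.33). No pair of libraries of the same group agreed within sampling noise, and pairs across groups were not checked for this. The sources do not say which WT and MUT mice were littermates of each other, and these correlations do not settle it. Pairs and the block therefore follow the replicate numbers only, as an assumption. The comparison without the block was kept as the main one. Promoter windows are from RefSeq, and 8 of the 36 genes had none.

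The 36 genes and the other lists were chosen with earlier results of these data known. Values in every sample were given for the 6 genes with the lowest unadjusted p, both ends of the fold changes, the 4 highest and 4 lowest levels per kilobase, a leading gene per role, Hras and tdTomato. One further gene of the pathway is not reported here. Atr, Fancm, Slx4, Fancl and Faap100 were described further after their values were seen.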

Additional observations from a re-analysis of the deposited data

How the results depend on the processing

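No setting brought any of the 36 genes under an adjusted p of 0.1, and their 95% intervals stayed within a 2-fold change in every setting. All 36 also stayed within a 1.5-fold change, except with the replicate block in DESeq2, where 35 did. The number of genes called among all genes was 2, and it was 9 with DESeq2, 4 with limma voom, 5 without a filter, 1 at an FDR of 0.05, 13 with the replicate block in edgeR, 55 with the block in DESeq2, and 16 with the block and the coding length correction. With at least 10 counts in every sample edgeR called 0 genes (479 at an unadjusted p under 0.05). With 1 sample left out it called 0 to 6, the 0 being without MUT replicate 2 (292 at an unadjusted p under 0.05), the 1 without MUT replicate 1, the 5 without WT replicate 3 and the 6 without MUT replicate 3. The block changed no call among the 36 genes, and Fancd2 had an unadjusted p of 0.043 (adjusted p = 0.73) with it and 0.039 without WT replicate 2. The count of genes whose groups do not overlap was 1, where 4.69% of all genes were higher and 3% lower in MUT. With the filter of 10 counts it was 0. With 1 sample left out it was 1 to 13, but fewer samples are then compared. The share over all genes is not given for those settings, so these counts are not read as a result about the 36.

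The median log2 fold change of the 36 was 0.057, 0.020 with the coding length correction, and 0.021 to 0.073 with 1 sample left out, the 0.021 being without WT replicate 3. Of the 36 genes, 18 changed sign in some alternative. The log2 fold change turned to -0.027 for Brca2, -0.0070 for Fancb, -0.0086 for Atm and -0.065 for Atr with the coding length correction, and to -0.026, -0.010, -0.0081 and -0.052 with the block added. It turned to -0.0098 for Rad51c and -0.011 for Xrcc3 with the filter of 10 counts, and to -0.0022 for Xrcc3 with DESeq2 size factors. With 1 sample left out the values were -0.094 to 0.20 for Brca2, -0.045 to 0.054 for Rad51c, -0.060 to 0.075 for Rad51d, -0.078 to 0.037 for Xrcc3, -0.026 to 0.16 for Rad50, -0.085 to 0.026 for Nbn, -0.016 to 0.079 for Rbbp8, -0.036 to 0.023 for Brip1, -0.097 to 0.079 for Fancb, -0.14 to 0.0027 for Fancc, -0.096 to 0.065 for Fancl, -0.034 to 0.20 for Fancm, -0.10 to 0.21 for Atm, -0.043 to 0.14 for Chek1, -0.053 to 0.048 for Chek2, -0.071 to 0.15 for Slx4 and -0.068 to 0.013 for Gen1. Leaving out WT replicate 3 turned 9 of these, and the cause was not tested. Depth limits the 3 genes under 10 CPM most.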
